A study of Rattus norvegicus with 4 samples.

Results

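The 10 genes described here are the coactivators YAP and TAZ (Yap1, Wwtr1), 2 TEAD factors (Tead1, Tead4), 3 genes that act on the pathway (Lats2, Ajuba, Amotl2) and 3 classical targets (Ccn1, Ccn2, Ankrd1). They were picked by gene symbol, and all 10 were present among the 18699 genes of the expression table. YAP and TAZ are transcriptional coactivators without a DNA-binding domain, and they act mainly by joining the TEAD factors on DNA. When the kinases LATS1 and LATS2 of the Hippo pathway phosphorylate YAP and TAZ, the coactivators are held in the cytoplasm or degraded through ubiquitin and the proteasome. When they reach the nucleus, as on stiff substrates or with serum, they raise a set of target genes that includes CCN1, CCN2, ANKRD1 and AMOTL2, and also LATS2 and AJUBA, which act back on the pathway; these roles are known mainly from human and mouse cells. In the mouse heart YAP is known for driving proliferation and survival of cardiomyocytes around birth.

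Neonatal rat ventricular myocytes, a primary culture of wild-type heart cells from Sprague Dawley rats 1 to 3 days old, were exposed to the proteasome inhibitor carfilzomib at 1 µM for 24 h or to vehicle, with 2 libraries per group. Both groups were kept in 15% serum with 0.1 mM bromodeoxyuridine, which limits the growth of dividing cells. Total counts were 18655450 and 18884333 in the carfilzomib libraries and 18736027 and 18757722 in the vehicle libraries. The labels do not say whether the 2 libraries of a group are separate cultures or pools of animals, so each p-value reflects library-to-library spread that could be technical.

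The cell types behind the label of ventricular myocytes were read from markers, which were not chosen to tell ventricle from atrium. All 8 cardiomyocyte markers were detected, with a summed level of 5231 to 5455 CPM (counts scaled to a common, TMM-normalised library total) after carfilzomib and 19950 to 20690 CPM with vehicle. The 10 fibroblast markers were also abundant, with sums of 15010 to 15730 CPM after carfilzomib and 28000 to 28540 CPM with vehicle, and Col1a1 alone averaged 10870 CPM after carfilzomib and 19670 CPM with vehicle. Sums of the 6 smooth muscle markers were 1306 to 1342 CPM after carfilzomib and 3761 to 3904 CPM with vehicle, those of the 7 macrophage markers 27.8 to 29.7 CPM after carfilzomib and 75.5 to 78.7 CPM with vehicle. The 7 endothelial markers summed to 71.3 to 72.8 CPM after carfilzomib and 73.4 to 73.6 CPM with vehicle, and the 4 epicardial markers to 56.3 to 60.5 CPM after carfilzomib and 46.5 CPM with vehicle. Of all these markers, Cd163 of macrophages was at 0 in both carfilzomib libraries, with 1 count in each vehicle library, and the others were above 0 in all 4 libraries. The libraries thus held RNA of several cell types, and all tested markers of cardiomyocytes, fibroblasts, smooth muscle cells and macrophages were lower after carfilzomib. Acta2 and Tagln gave most of the smooth muscle sum, averaging 2340 and 1264 CPM with vehicle. Whether other cell types expressed these 2 genes was not tested. In such bulk libraries fewer cells of a type and less RNA per cell cannot be told apart, and the part of cell composition in the results on Ccn1, Ccn2 and the other genes was not tested.

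All 10 genes changed with carfilzomib in edgeR's quasi-likelihood test with Benjamini-Hochberg adjustment over all 14519 genes tested (adjusted p under 0.05). Of all genes tested, 60.7% passed that threshold, 30.6% higher and 30.1% lower, so passing it is common in these libraries. Among the 10 genes, 8 were lower and 2, Yap1 and Lats2, were higher. Their median log2 fold change (carfilzomib over vehicle throughout) was -0.54, against a median of 0.00 over all genes tested. In each of the 10 genes the carfilzomib libraries and the vehicle libraries did not overlap, which held for 79.9% of all genes tested. A called fall of at least 2-fold was reached by Ccn1 and Ccn2, and by 7.38% of all genes tested. Ccn1 at 2.02-fold lay just past that limit, and Ankrd1 and Tead4, each at 1.97-fold, just short of it. A called rise of that size was reached by 0 of the 10 genes and by 3.74% of all genes tested. Together the 10 genes took 0.326% and 0.327% of the counts in the carfilzomib libraries and 0.556% and 0.564% in the vehicle libraries, and Ankrd1 alone gave between 40.5% and 46.1% of that in each library.

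**Figure D1:**
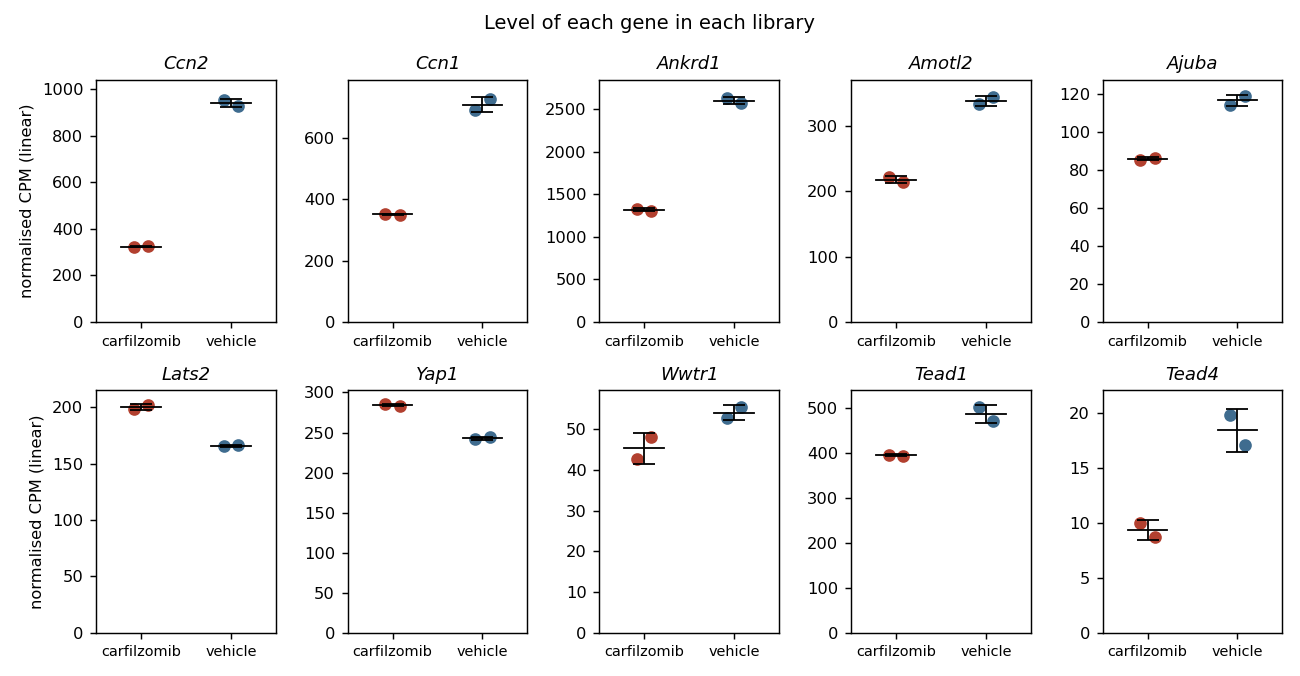
Level of the 10 genes in each library, as TMM-normalised CPM on a linear axis from 0; points are single libraries, horizontal lines the group mean and bars the SD over 2 libraries. Carfilzomib libraries lie above the vehicle libraries for Lats2 and Yap1 and below them for the other 8 genes, with the widest relative gap for Ccn2 at 324 CPM after carfilzomib and 941 CPM with vehicle.

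Of the 10 genes Ccn2 fell most. The fall of Ccn1 was close to those of Ankrd1 and Tead4, with overlapping 95% intervals. Ccn2 (gene ID 64032), which encodes the matricellular connective tissue growth factor, had 321 and 327 CPM in the carfilzomib libraries and 953 and 929 CPM in the vehicle libraries. The carfilzomib libraries lay far below both vehicle libraries, at a fitted 0.344 of the vehicle level (log2 fold change -1.54 ± 0.04, SE, edgeR adjusted p 1.99e-13). Of all genes tested, 2.65% had a lower log2 fold change than Ccn2. Ccn1 (gene ID 83476), which encodes the related integrin ligand CYR61, had 352 and 350 CPM after carfilzomib and 692 and 727 CPM with vehicle. The carfilzomib libraries lay close together at a fitted 0.495 of the vehicle level (log2 fold change -1.01 ± 0.04, SE, edgeR adjusted p 1.89e-11). Markers of several cell types were lower in the same libraries. The median log2 fold change was -0.82 for the 10 fibroblast markers and -1.23 for cardiomyocyte markers. For smooth muscle and macrophage markers it was -1.29 and -1.37, for endothelial markers -0.39 and for epicardial markers 0.29. The part of any of these cell types in the fall of Ccn1 and Ccn2 was not tested.

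The promoters of Ccn2 and Ccn1 are shown because both genes fell together and because both carry the core letters that TEAD factors recognise, CATTCC or its reverse complement GGAATG. Each line gives the 250 bases before the annotated start, 5′ to 3′ along the gene, from RefSeq on build GRCr8, with the core motif in capitals. That of Ccn2 spans chr1:22624615-22624864 and that of Ccn1 chr2:237225690-237225939, both on the minus strand.
Ccn2: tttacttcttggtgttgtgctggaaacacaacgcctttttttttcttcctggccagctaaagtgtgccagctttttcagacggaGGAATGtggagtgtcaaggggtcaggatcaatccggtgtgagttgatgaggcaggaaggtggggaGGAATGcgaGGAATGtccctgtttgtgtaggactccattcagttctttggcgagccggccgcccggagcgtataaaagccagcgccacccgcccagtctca
Ccn1: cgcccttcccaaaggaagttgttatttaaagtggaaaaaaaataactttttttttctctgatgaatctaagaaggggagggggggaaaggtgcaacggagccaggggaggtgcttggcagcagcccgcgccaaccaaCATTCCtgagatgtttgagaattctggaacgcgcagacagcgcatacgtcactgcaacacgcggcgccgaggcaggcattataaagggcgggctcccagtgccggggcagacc
The promoter of Ccn2 held 3 copies of the motif, all on the strand opposite to the gene, 166 to 161, 101 to 96 and 92 to 87 bases before the start. That of Ccn1 held 1 copy on the gene strand, 113 to 108 bases before the start.

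A promoter was available in the RefSeq table for 6 of the 10 genes, Yap1, Wwtr1, Amotl2, Ajuba, Ccn1 and Ccn2; Tead1, Tead4, Ankrd1 and Lats2 had none there. CATTCC on either strand stood in 5 of the 6, against 12.1% of all 33469 RefSeq promoters of that length, and at least 2 copies stood in that of Ccn2 and in 0.902% of all promoters. Since several of the 10 genes are known as TEAD targets, this share describes them and was not tested. In the YAP/TAZ target signature of human tumours described below, the motif stood in 5 of 15 promoters (33.3%). Those of Ccn1, Ccn2 and Amotl2 are among these 5. The same motif stood in the promoters of Yap1, which was higher after carfilzomib, and of Amotl2, which was lower. They are shown to set a gene that was higher beside one that was lower, each with 1 copy, from chr8:13451438-13451687 on the minus strand and chr8:112182376-112182625 on the plus strand of GRCr8.
Yap1: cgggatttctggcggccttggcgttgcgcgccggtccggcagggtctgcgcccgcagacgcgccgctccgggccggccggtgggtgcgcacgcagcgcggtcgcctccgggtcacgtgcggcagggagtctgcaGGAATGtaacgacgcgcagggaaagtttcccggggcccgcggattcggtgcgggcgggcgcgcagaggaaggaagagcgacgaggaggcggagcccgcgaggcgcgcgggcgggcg
Amotl2: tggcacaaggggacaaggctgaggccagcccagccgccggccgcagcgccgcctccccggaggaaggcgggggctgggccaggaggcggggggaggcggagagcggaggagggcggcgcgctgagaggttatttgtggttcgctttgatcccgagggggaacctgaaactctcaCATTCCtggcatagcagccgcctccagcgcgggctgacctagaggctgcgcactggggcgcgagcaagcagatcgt
Of the 6 promoters only that of Wwtr1 lacked these letters in the 250 bases, which says nothing on TEAD binding elsewhere. Neither TGANTCA, the site of AP-1 factors (in 6.34% of all promoters), nor the CArG box of SRF (in 1.5%), each searched on both strands, was found in any of the 6.

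**Figure D2:**
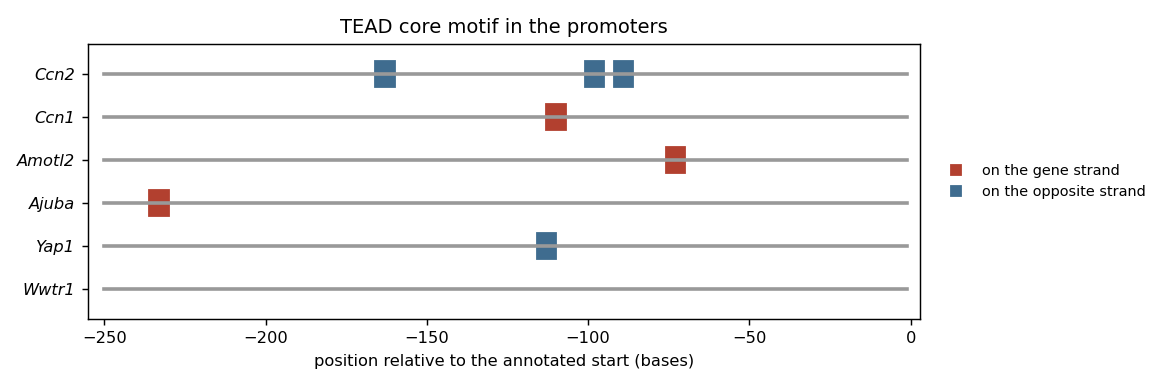
Position of the TEAD core motif CATTCC in the 250 bases before the annotated start of 6 genes, in bases relative to the start; boxes mark the motif on the gene strand or the opposite strand. Ccn2 has 3 copies, Ccn1, Amotl2, Ajuba and Yap1 have 1 each, and Wwtr1 has none.

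Ankrd1 (gene ID 27064), which encodes a cardiac ankyrin repeat protein of the sarcomere and nucleus, had the highest level per length of the 10 genes. It had 1328 and 1304 CPM after carfilzomib and 2628 and 2566 CPM with vehicle. The 2 groups were far apart relative to their spread, with carfilzomib at a fitted 0.507 of vehicle (log2 fold change -0.98 ± 0.04, SE, edgeR adjusted p 1.75e-11). Cardiomyocyte markers had a median log2 fold change of -1.23 in the same libraries, ranging from -3.79 for Myh6 to -0.36 for Tnnt2, and their part in the fall of Ankrd1 was not tested. Ankrd23, a paralogue of Ankrd1 in striated muscle, moved the other way: it had 89 and 101 counts after carfilzomib and 22 and 12 counts with vehicle. That was a rise in both carfilzomib libraries, on few counts (log2 fold change 2.44 ± 0.27, SE, edgeR adjusted p 1.51e-06). Ankrd2, a further paralogue, had 0 counts in both carfilzomib libraries and 3 and 4 counts in the vehicle libraries, too few to be tested.

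Ccn3, Ccn4 and Ccn5 were also called lower. Ccn5, which lacks the C-terminal domain of the other CCN proteins, averaged 18.4 CPM after carfilzomib and 37.8 CPM with vehicle, with a log2 fold change of -1.04 ± 0.08 (SE). Ccn3 had a log2 fold change of -0.85 and Ccn4 one of -0.37. With DESeq2 the call of Ccn4 was lost at an adjusted p of 0.128, and without carfilzomib replicate 2 its edgeR adjusted p was 0.0691.

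Among the genes that act on the pathway, 2 were lower and 1 was higher. Amotl2 (gene ID 65157) encodes an angiomotin, a junction protein that binds YAP and promotes LATS activity, and had 221 and 214 CPM after carfilzomib and 333 and 344 CPM with vehicle. Both carfilzomib libraries lay below both vehicle libraries (log2 fold change -0.64 ± 0.04, SE, edgeR adjusted p 5.3e-09). Of the other angiomotins Amot had a log2 fold change of -0.50 ± 0.08 (SE) and was called lower. Amotl1 did not pass, with 142 CPM after carfilzomib and 139 CPM with vehicle, an edgeR adjusted p of 0.562, and a 95% interval of its log2 fold change from -0.06 to 0.13.

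Ajuba (gene ID 85265) encodes a LIM domain protein that binds and restrains LATS kinases at junctions under tension. It had 85.5 and 86.6 CPM after carfilzomib and 114.5 and 119 CPM with vehicle. The carfilzomib level was lower by 26.3% without overlap (log2 fold change -0.44 ± 0.05, SE, edgeR adjusted p 2.26e-06). Wtip, another LIM protein of the same family, was lower with a log2 fold change of -0.72, while Limd1 did not pass at 0.08 with an edgeR adjusted p of 0.24 and a 95% interval from -0.04 to 0.20.

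Lats2 (gene ID 305922), the kinase that phosphorylates YAP and TAZ and is itself a YAP target, was higher after carfilzomib. Its 198 and 202 CPM in the carfilzomib libraries stood above 165 and 166 CPM in the vehicle libraries. The rise of 20.9% was small beside the changes above, but the groups did not overlap (log2 fold change 0.27 ± 0.04, SE, edgeR adjusted p 4.68e-05). Lats1, the paralogous kinase, averaged 68.7 CPM after carfilzomib and 61.6 CPM with vehicle, which passed narrowly (log2 fold change 0.16 ± 0.06, SE, edgeR adjusted p 0.0334). Lats1 was not called with DESeq2 at an adjusted p of 0.154, without carfilzomib replicate 2 at 0.205 and without vehicle replicate 2 at 0.146, and with the replicate block at 0.0742.

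The 2 coactivators moved in opposite directions by small amounts. Yap1 (gene ID 363014) had 285.5 and 283.5 CPM after carfilzomib and 242 and 244 CPM with vehicle. The replicates nearly coincided in each group, and carfilzomib was higher by 17.1% (log2 fold change 0.23 ± 0.04, SE, edgeR adjusted p 0.000166). On the authors' deposited FPKM scale, which divides by gene length, Yap1 was at 63.1 and 62.8 after carfilzomib and 56.6 and 56.9 with vehicle, a rise of 11.0%. The rise is thus smaller per length than per read, and the 2 groups remained apart on both scales. The CPM also carry TMM factors. With library size alone the edgeR log2 fold change of Yap1 was 0.26, and on FPKM it was 0.15. Wwtr1 (gene ID 295062) had 42.6 and 48.0 CPM after carfilzomib and 52.7 and 55.4 CPM with vehicle. The higher carfilzomib library lay closer to the vehicle libraries than the lower one, and the groups did not overlap, with carfilzomib lower by a fitted 1.19-fold (log2 fold change -0.25 ± 0.07, SE, edgeR adjusted p 0.00513). Wwtr1 was not called without carfilzomib replicate 1, at a log2 fold change of -0.17 and an edgeR adjusted p of 0.0979, and without vehicle replicate 2, at -0.22 and 0.0513. Over all alternatives its adjusted p lay between 0.00273 and 0.0979. Wwtr1 is the one gene of the 10 that is not listed in the authors' deposited table of changed genes, where the other 9 stand with the same direction and a q-value of at most 2.84e-05.

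All 4 TEAD genes, which encode the DNA-binding partners, were called lower after carfilzomib, beside 30.1% of all genes tested. Tead1 (gene ID 361630), a TEAD that binds muscle gene promoters, had 396 and 394 CPM after carfilzomib and 501 and 472 CPM with vehicle. The fall of 18.8% exceeded the spread of both groups (log2 fold change -0.30 ± 0.04, SE, edgeR adjusted p 1.67e-05). Tead4 (gene ID 683522), the lowest of the 10 genes per length, had 10.01 and 8.69 CPM after carfilzomib and 19.8 and 17.1 CPM with vehicle. Its carfilzomib libraries were at a fitted 0.507 of the vehicle level (log2 fold change -0.98 ± 0.11, SE, edgeR adjusted p 2.77e-06). Tead2 and Tead3 had log2 fold changes of -0.73 ± 0.07 and -0.71 ± 0.08 (SE). The estimated counts of Tead1, Tead3 and Tead4 have decimals, so reads may have been divided between features and these values are less certain. The same holds, among other genes named here, for Lats1, Amotl1, Igfbp3, Nt5e, Cat, Ccna2, Pik3cb, Igf1r, Acta1, Acta2, Stk4, Mob1a, Fat4, Wwc1, Vgll3, Vgll4, Usp9x, Csnk1e, Myocd, Mrtfa and Mrtfb.

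**Figure D3:**
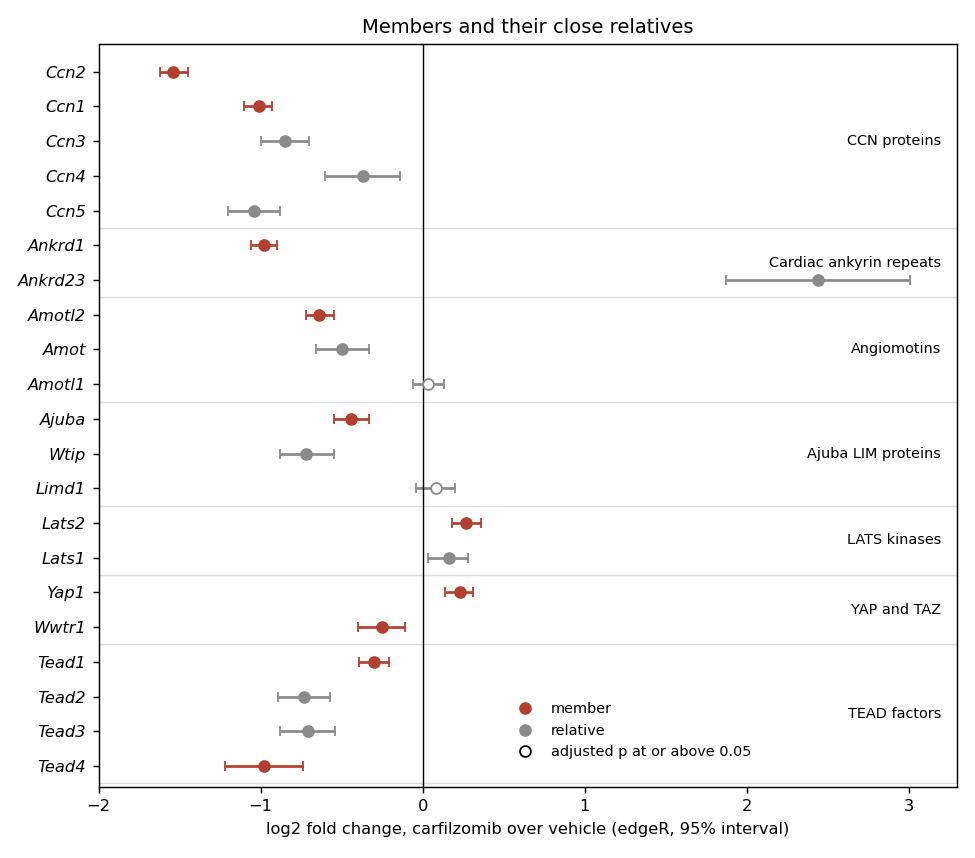
Log2 fold change (carfilzomib over vehicle, edgeR) with its 95% interval for the 10 genes (red, marked as members) and 11 close relatives (grey), grouped by family; open circles did not pass an adjusted p of 0.05. The 5 CCN genes and the 4 TEAD genes lie left of 0, Ankrd23 lies at 2.44, and Amotl1 and Limd1 are the 2 genes whose interval spans 0.

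The order of the 10 genes by level per length also differed between the groups. By deposited FPKM the carfilzomib order began with Ankrd1 at 784 ± 9.36 (SD, n = 2), Ccn1 at 183 ± 0.45 and Ccn2 at 143 ± 1.88. The vehicle order began with Ankrd1 at 1512 ± 29.6, Ccn2 at 406 ± 8.58 and Ccn1 at 362 ± 11.5, so the 2 CCN genes stood in opposite order. Amotl2 had 53.8 ± 1.22 FPKM after carfilzomib and 81.6 ± 1.65 FPKM with vehicle, below Yap1 after carfilzomib and above it with vehicle. Tead1, Lats2, Wwtr1 and Ajuba followed between 27.3 and 42.3 FPKM after carfilzomib and between 33.2 and 51.0 FPKM with vehicle. In the vehicle libraries Ajuba and Wwtr1 overlapped, at 35.6 and 36.8 FPKM and at 35.0 and 36.7 FPKM. Tead4 was last at 1.88 ± 0.20 FPKM after carfilzomib and 3.63 ± 0.38 FPKM with vehicle.

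Ratios within a library show how related genes moved relative to each other. On the log2 scale of counts, Ccn2 over Ccn1 was -0.13 and -0.10 in the carfilzomib libraries and 0.46 and 0.35 in the vehicle libraries, a difference of -0.52. Tead4 over Tead1 was -5.31 and -5.50 after carfilzomib and -4.66 and -4.79 with vehicle. Wwtr1 over Yap1 was -2.75 and -2.56 after carfilzomib and -2.20 and -2.14 with vehicle, a difference of -0.48 that was -0.37 on deposited FPKM. Lats2 over Lats1 was 1.56 and 1.52 after carfilzomib and 1.39 and 1.46 with vehicle. In all 4 ratios the groups did not overlap. For single genes, CPM did not overlap between the groups in 79.9% of all genes tested. No such share was computed for ratios. With 2 libraries against 2, the two-sided exact permutation test gave p = 0.333 for each, the smallest p it allows, so these differences are described only.

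Other targets of the same factors were read from a signature of YAP/TAZ targets taken from human tumours, chosen like the 10 genes with earlier results of these data known. Of its 22 genes, 21 were in the table and tested: 15 were lower, 5 higher and 1, Nt5e, did not pass (log2 fold change -0.15). That is 95.2% called, beside 60.7% of all genes tested (30.1% lower and 30.6% higher). Without carfilzomib replicate 2 Nt5e was called, at -0.22 with an edgeR adjusted p of 0.0301, and its values over left-out libraries lay between -0.22 and -0.07. The median over the 21 was -0.55. It shares Ccn1, Ccn2, Ankrd1, Amotl2 and Lats2 with the 10 genes, and without these 11 of 16 were lower and 4 higher, with a median of -0.42. Ccdc80, an extracellular matrix protein, averaged 210 CPM after carfilzomib and 549 CPM with vehicle (log2 fold change -1.39), and Igfbp3, which binds insulin-like growth factors, averaged 23.3 CPM after carfilzomib and 47.2 CPM with vehicle (-1.02). Gadd45a, a stress and DNA damage gene, was higher at 81.7 CPM after carfilzomib and 54.0 CPM with vehicle (0.60), as was Asap1, a regulator of ARF GTPases (0.20). The other 2 that were higher, named after their values were seen, were Myof, a membrane repair protein (0.19), and the receptor kinase Axl. For Axl (0.11) the edgeR adjusted p was 0.047, and over all alternatives it lay between 0.0123 and 0.468, the highest without carfilzomib replicate 1, where the log2 fold change was 0.06.

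Genes described downstream of YAP in the mouse heart moved in both directions. Of 11 tested, 6 were lower, 2 higher and 3 did not pass, and the median was -0.37 on the log2 scale. Thus 72.7% of this list were called, beside 60.7% of all genes tested. The antioxidant enzymes Cat (catalase) and Sod2 (mitochondrial superoxide dismutase) were higher with log2 fold changes of 1.09 and 1.08. Ccna2, the cyclin of S phase, Birc5, which encodes survivin, and Snai2, a repressor of epithelial genes, were lower at -0.96, -0.86 and -0.86. Pik3cb and Igf1r did not pass, at 0.06 and -0.03. Sox2 did not pass either, with 11 and 6 counts after carfilzomib and 5 and 10 with vehicle. On so few counts the 95% interval of its log2 fold change ran from -1.04 to 1.32. TEAD factors also bind MCAT elements of muscle genes, and of 5 such genes 4 were lower and Acta1 did not pass (log2 fold change -0.09, edgeR adjusted p 0.0821). On this short list 80% were called, beside 60.7% of all genes tested. Acta1 was called with limma-voom, at an adjusted p of 0.0397, and without vehicle replicate 1, at -0.13 and an edgeR adjusted p of 0.00989, and its values over left-out libraries lay between -0.13 and -0.04. The other 4 had a wide range: Myh6 at -3.79 and Myh7 at -3.76, a pair of similar genes whose reads may be split between them, Acta2 at -2.11 and Tnnt2 at -0.36. These 4 are not separate from the marker lists: Myh6, Myh7 and Tnnt2 are also cardiomyocyte markers and Acta2 a smooth muscle marker.

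Hippo kinases, scaffolds and other regulators moved in both directions. The list includes Lats2, Amotl2 and Ajuba, and also TEAD cofactors of the Vgll family. Of 34 tested, 10 were higher, 15 lower and 9 did not pass. Their median was -0.01 on the log2 scale, with the lowest at -0.86 and the highest at 0.57. The share called was 73.5%, beside 60.7% of all genes tested. Lats1 and Lats2 of the kinase core are described above. Its other genes were chosen by role after the values were seen. Of these, Stk4 (MST1) had a log2 fold change of 0.18, Mob1a 0.30 and Sav1 -0.16. Stk3 (MST2) and Mob1b did not pass at -0.14 and 0.09. Nf2, an upstream regulator chosen in the same way, did not pass at -0.01. Without vehicle replicate 2 Stk3 was called, at -0.18 with an edgeR adjusted p of 0.0412. Without vehicle replicate 1 Mob1b was called, at 0.25 with an edgeR adjusted p of 0.0172, and its values over left-out libraries lay between -0.06 and 0.25. The adjusted p of Stk4 was 0.0168 with edgeR and 0.105 with DESeq2, and without carfilzomib replicate 1 its log2 fold change was 0.15 at an edgeR adjusted p of 0.112. For Sav1 it was 0.0395 with edgeR, 0.164 with DESeq2, 0.0803 with the replicate block and 0.101 with library size alone. Without carfilzomib replicate 1, carfilzomib replicate 2 or vehicle replicate 1 its edgeR adjusted p was 0.183, 0.0951 and 0.207, the last at a log2 fold change of -0.10. Taok1 and Taok3, kinases upstream of MST1 and MST2, were higher at 0.57 and 0.56, while Taok2, the other gene of that family in the list and named after its value was seen, was lower at -0.16 (edgeR adjusted p 0.0045). Without carfilzomib replicate 2 Taok2 was not called, at -0.15 and an edgeR adjusted p of 0.0748. The giant cadherin Fat4, the scaffold Wwc1 (KIBRA) and Wtip were lower at -0.83, -0.86 and -0.72. Fat1, a related cadherin named after its value was seen, averaged 394 CPM after carfilzomib and 604 CPM with vehicle. Vgll3, a TEAD cofactor also named after its value was seen, was lower at -0.54, and Vgll4, a TEAD cofactor that competes with YAP, did not pass at 0.11. Vgll2 had too few counts to be tested.

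**Figure D4:**
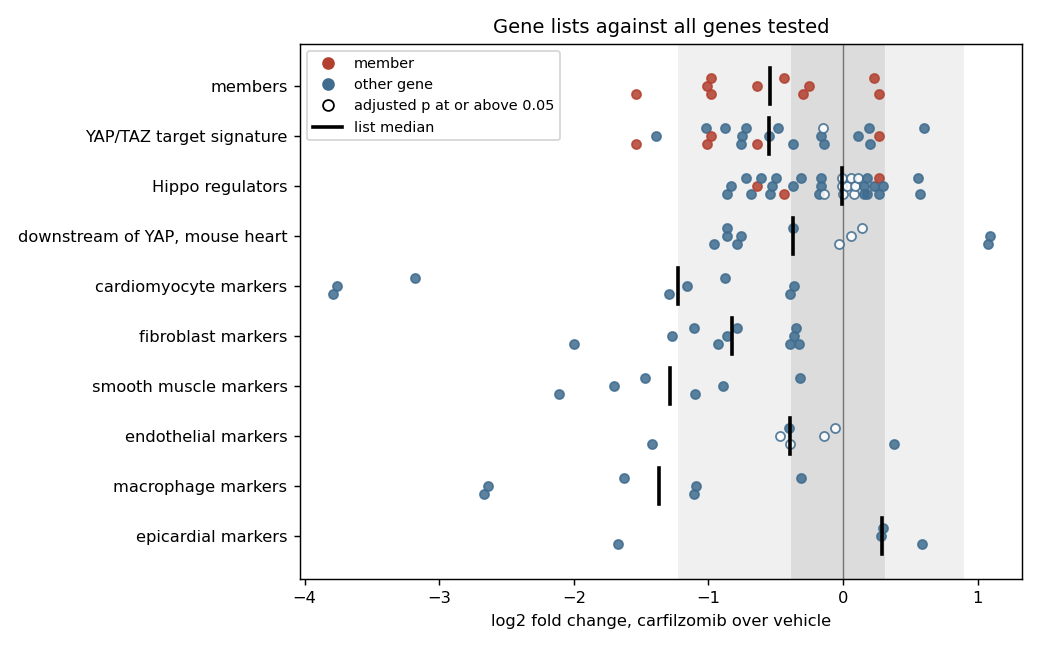
Log2 fold change (carfilzomib over vehicle) of every tested gene of 10 lists, with the 10 genes in red (members); filled points passed an edgeR adjusted p of 0.05, black bars are list medians, and the grey bands hold the middle 50% and 90% of all genes tested. The median is -0.54 for the 10 genes and -0.55 for the target signature, -0.01 for the Hippo regulators, and -1.23 and -0.82 for cardiomyocyte and fibroblast markers.

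Factors that act on Hippo proteins through ubiquitin or casein kinase were also mixed. Of 11 tested, 5 were higher, 3 lower and 3 did not pass, and the median was 0.12 on the log2 scale. Here 72.7% were called, beside 60.7% of all genes tested. Usp9x, a deubiquitinase, averaged 472 CPM after carfilzomib and 306 CPM with vehicle (0.62). Tnks, a tankyrase that marks angiomotins for ubiquitination by RNF146, and Rnf146 itself were higher at 0.50 and 0.33. Otub2, a deubiquitinase of YAP and TAZ, Siah2, a ligase for LATS2, and Csnk1e, a casein kinase, were lower at -0.97, -0.44 and -0.41. These values are RNA levels, and the protein levels of YAP, TAZ or LATS2 were not measured here.

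Srf, whose product shares several cytoskeletal targets with YAP, also fell. It averaged 91.7 CPM after carfilzomib and 209 CPM with vehicle (log2 fold change -1.19), and its coactivator Myocd was lower at -0.49. Mrtfa had a log2 fold change of -0.18 at an edgeR adjusted p of 0.0167 that was 0.0924 with DESeq2 and 0.0726, 0.0813 and 0.099 without carfilzomib replicate 1, carfilzomib replicate 2 or vehicle replicate 2. Mrtfb did not pass at -0.04, so 3 of the 4 genes of this list were lower, with a median of -0.33. That is 75% called, beside 60.7% of all genes tested.

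Over the 4 libraries, the genes whose log2 CPM relative to the vehicle mean lay nearest to those of Ccn2, the largest fall, were Adamtsl3, Psat1 and E2f1, at Euclidean distances of 0.066, 0.069 and 0.073 log2 units. Nearest to Lats2, the largest rise, were Irf1, Prkx and Piezo1, at 0.015, 0.019 and 0.020. With 2 conditions this likeness amounts to a similar fold change and similar replicates.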

How the data were processed

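RNA of 2 carfilzomib and 2 vehicle libraries was analysed, grouped by sample title; columns headed as control were read as vehicle, matched by number. The authors deposited estimated counts per gene and FPKM, per the file headers. Their comparison table, with log2 fold changes and p-values and q-values from DESeq2 per the file headers, lists 6063 genes with q-values up to 0.0499. The submitters' processing notes name featureCounts 1.6.0, HISAT, Bowtie2 and build Rnor_6.0, without roles. A further 10 value columns were not used.

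Estimated counts were rounded. In R 4.3.3, edgeR 4.0.16 fitted genes that passed filterByExpr (minimum count 10, minimum total 15) with TMM factors of 0.987 to 1.01, and its robust quasi-likelihood F test was adjusted over 14519 genes at 0.05. Each standard error is the size of the log2 change over the root of F; SD is over 2 libraries. The common biological coefficient of variation was 0.0465. Replicates differed by more than sampling noise (chi-square per degree of freedom 2.99 for carfilzomib, 3.32 for vehicle). Estimated counts had a decimal part (tolerance 1e-06) in at least 1 library for 35.1% of genes. Alternatives were DESeq2 1.42.0, limma-voom (limma 3.58.1), RLE factors, library size alone, no filter on low counts, a minimum of 1 CPM in 2 libraries with 50 counts in total, a replicate block, and each library left out. The scripts were tested on simulated data.

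The 10 genes and all lists were chosen with earlier results of these data known. The naming rule took the 10 genes, their relatives at 1 CPM or more, the 3 largest called changes per direction in each other list at 1 CPM or more, and the 3 genes nearest in pattern (prior count 2) to the largest rise and fall. Promoters came from RefSeq, GRCr8, matched by gene ID; motifs were searched on both strands with Python 3.11.15.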

Additional observations from a re-analysis of the deposited data

How the results depend on the processing

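Of 110 recomputed log2 fold changes of the 10 genes (10 genes under 11 alternatives), 108 kept their direction and side of the threshold, 2 of Wwtr1 lost it, and 0 reversed. The number of the 10 genes called stayed at 10 under every alternative other than without carfilzomib replicate 1 and without vehicle replicate 2, with 9 each. Hippo regulators called ranged from 21 to 25 and target signature genes from 16 to 20. Over all genes, 8812 were called with edgeR, 6489 with DESeq2, 8900 without a low-count filter, and 7360 to 7974 with 1 library left out. Library size alone moved log2 fold changes by a median of 0.033. For 75 other genes named or checked, 787 of 825 values kept their side of the threshold, 33 lost it and 5 gained it, and 0 called values reversed. Among them Msln and Wt1 of the epicardial list lost their calls with DESeq2 (adjusted p 0.234 and 0.122), and the number of that list called was 4 with edgeR and 2 with DESeq2, without carfilzomib replicate 2 and without vehicle replicate 1. Of the relatives, 2 were called higher with edgeR and 1 with DESeq2, with the replicate block, and without carfilzomib replicate 2 or vehicle replicate 2. Nothing in the labels says that replicate numbers pair the libraries, and the deviations of same-numbered libraries correlated at 0.13 across 12244 genes. With the replicate block 8229 genes were called and all 10 genes kept their calls. On deposited FPKM the 4 ratios kept their direction. With 2 libraries per group, the call of Wwtr1 rests on single libraries.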

Other observations

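Yap1 stood apart from the other 9 genes in the length behind the deposited FPKM, derived here as counts over FPKM and library total. That length was 4568 and 4567 bases in the carfilzomib libraries and 4226 and 4233 bases in the vehicle libraries, 7.99% longer after carfilzomib. For the other 9 genes the ratio of lengths between carfilzomib and vehicle lay between 1.000 and 1.003. Among 8723 genes with at least 100 counts and an FPKM of at least 5 in all 4 libraries, 182 (2.09%) had a length that differed by at least 5% with groups that did not overlap, and 39 (0.447%) were at least as much longer after carfilzomib as Yap1. The labels do not say how lengths were set, and the transcripts behind the count of Yap1 were not analysed here.

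Single genes of the marker lists summed in the report had the following values. Thy1, a fibroblast surface protein, averaged 6.59 CPM after carfilzomib and 26.4 CPM with vehicle, and Col3a1 and Postn had log2 fold changes of -1.27 and -1.11. Lyz2, lysozyme of macrophages, averaged 5.50 CPM after carfilzomib and 35.0 CPM with vehicle (-2.67), and Ptprc and Mrc1 had -1.63 and -1.11. Among smooth muscle markers Cnn1 and Myh11 had -1.70 and -1.47. Endothelial markers were split, with Tek at 0.38, Kdr at -0.40 and Vwf at -1.42, and 4 of 7 did not pass. The counts of Lyz2, Myh11 and Tek had decimals, so their reads may have been divided between features. Of the epicardial markers Upk1b was higher at 0.59 and Upk3b lower at -1.67.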
